A study of Mus musculus with 12 samples.

Results

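The genes of cholesterol and fatty acid synthesis were followed through RNA sequencing of cultured mouse bone marrow mesenchymal stem cells (MSCs), the adherent marrow cells that can form bone, fat and cartilage cells. The 38 genes were chosen by symbol as members of the pathway, though with earlier results of these data known, from the 18908 genes that both deposited tables list. By role, 5 encode the SREBP transcription factors and their regulators, together called SREBP regulators below. Another 18 are genes of sterol synthesis, 1 is a sterol transfer gene, and 10 are genes of fatty acid synthesis, desaturation and elongation. The last 4 are genes of the liver X receptors (LXRs) and sterol efflux. All 38 were present in both tables and passed the filter on low counts in both. The age table held young vehicle replicates 2, 4 and 5 and old vehicle replicates 2, 8 and 9, and compares donor ages. The melatonin table held old vehicle replicates 1, 3 and 5 and old libraries labelled melatonin (1 µM for 24 h) with the same replicate numbers. Melatonin is a pineal hormone, and the series title concerns bone cell formation from senescent MSCs under melatonin. For the age table vehicle is read from the sample titles alone. The labels give age only as young or old, name no strain, sex or vehicle, and leave unstated how many animals the libraries represent. The p-values therefore measure the spread between these libraries, which may be technical.

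Cells hold their cholesterol level by a feedback loop. The membrane proteins SREBP1 and SREBP2, encoded by Srebf1 and Srebf2, travel with the escort protein SCAP to the Golgi when sterols are scarce, are cut there, and their released parts switch on the genes of sterol and fatty acid synthesis. When sterols are plentiful, INSIG1 and INSIG2 hold SCAP in the endoplasmic reticulum. The LXRs, encoded by Nr1h2 and Nr1h3, respond to oxidised sterols and raise the efflux pumps ABCA1 and ABCG1. In marrow, Nr1h3 and Abcg1 are strongly expressed by macrophages, cells that also take up and export cholesterol from what they engulf.

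The DNA before 6 members is shown for the letters of elements known from SREBP targets, where SREBPs work with the partner NF-Y, in genes of each main role. Each is the stretch of 250 bases before the RefSeq start site in build GRCm38.p6, written 5′ to 3′ on the gene's strand, with matches in capitals. The motifs searched on both strands were a sterol regulatory element (TCACNCCAC), the NF-Y motif CCAAT, and the E-box CACGTG, and no 2 of these matches overlap in the stretches shown. Hmgcs1 lies at chr13:119690101-119690350 (plus strand), Cyp51 at chr5:4104698-4104947 (minus strand) and Insig1 at chr5:28071162-28071411 (plus strand). Srebf2 lies at chr15:82147019-82147268 (plus strand), Elovl6 at chr3:129532136-129532385 (plus strand) and Abca1 at chr4:53159896-53160145 (minus strand).
Hmgcs1: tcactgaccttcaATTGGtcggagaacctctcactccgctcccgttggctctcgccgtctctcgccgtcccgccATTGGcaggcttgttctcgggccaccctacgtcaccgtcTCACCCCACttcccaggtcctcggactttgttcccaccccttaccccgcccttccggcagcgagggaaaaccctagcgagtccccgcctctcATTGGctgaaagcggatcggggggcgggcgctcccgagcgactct
Cyp51: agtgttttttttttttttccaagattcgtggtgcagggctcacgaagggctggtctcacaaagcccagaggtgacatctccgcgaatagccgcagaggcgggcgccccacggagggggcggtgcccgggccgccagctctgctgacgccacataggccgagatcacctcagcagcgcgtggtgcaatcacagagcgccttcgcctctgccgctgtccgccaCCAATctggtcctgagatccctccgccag
Insig1: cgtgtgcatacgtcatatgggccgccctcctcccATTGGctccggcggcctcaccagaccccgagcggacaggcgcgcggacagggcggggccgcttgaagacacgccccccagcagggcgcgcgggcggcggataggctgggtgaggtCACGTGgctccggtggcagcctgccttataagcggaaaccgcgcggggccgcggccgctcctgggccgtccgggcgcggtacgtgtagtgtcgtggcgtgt
Srebf2: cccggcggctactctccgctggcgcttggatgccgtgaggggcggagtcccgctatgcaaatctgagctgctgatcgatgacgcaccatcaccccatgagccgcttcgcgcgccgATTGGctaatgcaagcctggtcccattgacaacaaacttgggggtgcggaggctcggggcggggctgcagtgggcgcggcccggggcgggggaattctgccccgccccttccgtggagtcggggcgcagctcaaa
Elovl6: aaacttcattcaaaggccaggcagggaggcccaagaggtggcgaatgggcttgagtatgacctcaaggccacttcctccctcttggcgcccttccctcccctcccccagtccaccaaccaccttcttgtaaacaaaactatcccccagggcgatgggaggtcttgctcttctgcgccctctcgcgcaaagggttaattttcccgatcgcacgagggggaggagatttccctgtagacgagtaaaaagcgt
Abca1: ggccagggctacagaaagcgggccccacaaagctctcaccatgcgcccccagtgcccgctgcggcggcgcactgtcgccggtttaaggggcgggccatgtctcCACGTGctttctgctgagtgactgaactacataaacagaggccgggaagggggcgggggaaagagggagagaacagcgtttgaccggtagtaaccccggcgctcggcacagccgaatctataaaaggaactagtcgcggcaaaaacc
Hmgcs1 had 1 match to the sterol regulatory element, whose first base lies 137 bases before the start, and 3 to CCAAT. Cyp51, Insig1 and Srebf2 had 1 CCAAT match each, Insig1 and Abca1 had 1 E-box each, and Elovl6 had no match to any of these motifs. Of the 38 members, 30 had a promoter in the RefSeq table, and Fdps, Abcg1, Stard4, Scd2, Fads1, Scd1, Sqle and Fdft1 did not. In 21 of these 30 the stretch held CCAAT (70.0%), against 37.5% of all 27025 genes of the table, which include noncoding genes. Among the sterol synthesis members with a promoter it was 14 of 15. The sterol regulatory element was found in 1 of 30 members and in 1.22% of all genes, and the E-box in 7 of 30 and in 6.86%. Only the 1 form of the sterol regulatory element given above was searched, so stretches with any other form were not counted. A match is a description of the letters only, and no binding was measured.

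Library totals ran from 20595378 to 21309663 estimated counts. Each library of the age table had its highest correlation in the melatonin table with 1 partner, and the choice was mutual in 6 of 6 cases. Old vehicle replicates 2, 8 and 9 were matched by old vehicle replicates 1, 3 and 5. Young vehicle replicates 2, 4 and 5 were matched by the libraries labelled melatonin with numbers 1, 3 and 5, although the labels call those old. Over 14133 genes the matched pairs had r = 0.98 to 0.994 in log2 CPM (CPM, counts scaled to a fixed library total with TMM factors), against 0.871 to 0.945 within a group of 1 table. Unmatched libraries of different tables had r = 0.783 to 0.959. Within pairs the median chi-square per gene, a squared difference in counts, was still 1.81 to 6.08 times that of counting noise alone. The pairs were therefore not merged. Within groups this ratio was 25.2 to 57.8. The labels do not say whether matched libraries share cells. The 2 comparisons below are therefore given side by side, and the mirror image between them is not independent support. Of 20 macrophage marker genes, 20 were detected and 19 had a count in every library. In old against young vehicle 20 of 20 were higher, with a median log2 difference of 5.17, of which 20 had an unadjusted p under 0.05 and 0 passed by edgeR. Their summed level was 79.3 to 961 CPM in young vehicle, 1108 to 21550 CPM in old vehicle libraries of the age table, 1206 to 23670 CPM in those of the melatonin table, and 129 to 1008 CPM in libraries labelled melatonin. The high values were those of old vehicle replicates 8, 9, 3 and 5. All 10 stromal markers were detected, 9 of them in every library, at a sum of 4775 CPM or more, and the stem cell niche gene Lepr had no count in some libraries. Lymphocyte markers summed to at most 0.716 CPM.

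Compared per transcript length, as the TPM values deposited by the authors (transcript abundance scaled to a fixed library total), the desaturase gene Scd2 had the highest level of the 38 members, with a median over the 12 libraries of 311 TPM and a range from 33.2 to 546 TPM. Next came Fdps, which makes farnesyl diphosphate, at a median of 113 TPM, and the elongase gene Elovl1, at 110.4 TPM. The sterol pump gene Abcg1 had the lowest median, 2.27 TPM, and the widest ratio of highest to lowest CPM, 42.2 times. The LXR gene Nr1h3 followed with 24.6 times, Scd2 with 14.4 times and the isomerase gene Idi1 with 11.4 times. At the other end Fads1, Pmvk and Insig2 differed by 1.31, 1.37 and 1.38 times over all 12 libraries. The members did not share 1 order of libraries, but 24 of 38 had their 2 highest levels in young vehicle replicate 4 and its match, labelled melatonin replicate 3. That held for 13 of 18 sterol synthesis genes, 7 of 10 fatty acid genes and 0 of 4 genes of the LXRs and efflux. The 2 libraries are a matched pair with r = 0.994, and the share of all genes with this order was not computed. These counts are thus a description and not a trait set against other genes.

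**Figure D1:**
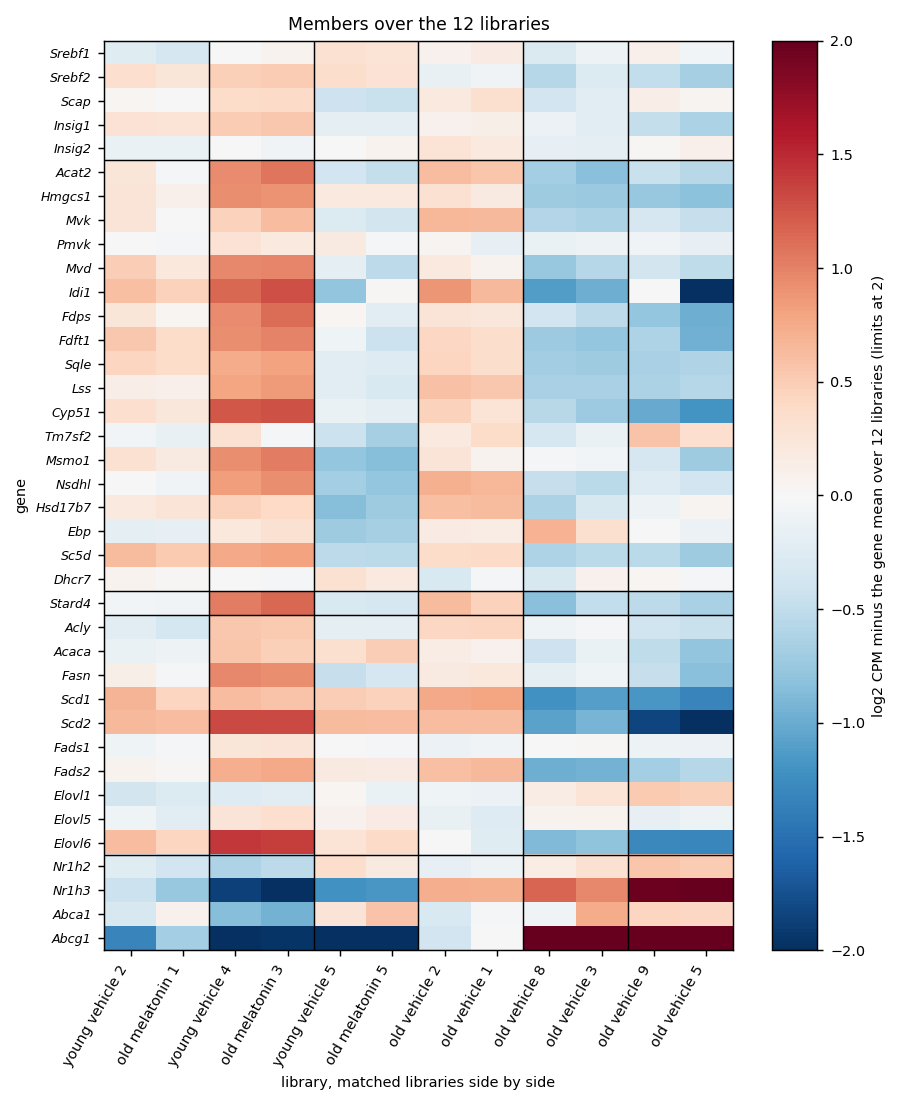
Level of each member in each library, as log2 CPM minus the mean of that gene over the 12 libraries (colour, with limits at 2). Columns are libraries, with matched libraries side by side, and rows are grouped by role. Most synthesis genes are high in young vehicle 4 and old melatonin 3, while Nr1h3 and Abcg1 are high in old vehicle 8, 3, 9 and 5.

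Of the 5 SREBP regulators, Srebf2 had the largest difference in both comparisons. Srebf2, which encodes the factor that mainly drives sterol synthesis, was at 188, 208 and 190.4 CPM in the young and 135, 101 and 105 CPM in the old vehicle libraries of the age table. The melatonin table gave 142, 123 and 93.6 CPM in old vehicle and 177, 213 and 183 CPM in labelled melatonin libraries. Every old vehicle library was below every young and every labelled melatonin library. The log2 difference was -0.76 ± 0.17 (SE, n = 3 and 3) for old minus young, with an edgeR adjusted p = 0.315, and 0.64 ± 0.19 for labelled melatonin minus old vehicle (edgeR adjusted p = 0.286). Neither passed. Old vehicle replicates 2 and 1, the old libraries with the fewest macrophage transcripts, held the highest Srebf2 of the 6, and with each as the only old library the log2 difference was -0.53 and 0.42.

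Srebf1, whose products drive fatty acid genes, was at 75.7, 90.5 and 111 CPM in the young and 95.0, 73.5 and 96.1 CPM in the old vehicle libraries, and at 101, 84.0 and 86.6 CPM in old vehicle and 70.9, 94.6 and 108 CPM in labelled melatonin libraries. These groups overlapped, and the log2 differences of -0.048 ± 0.20 and -0.021 ± 0.20 were below their SE. Insig1, the retention factor that is itself an SREBP target, was at 63.7, 74.3 and 45.8 CPM in the young and 55.8, 48.3 and 37.7 CPM in the old vehicle libraries. It was at 56.7, 45.0 and 33.8 CPM in old vehicle and 63.5, 76.4 and 45.9 CPM in labelled melatonin libraries of the melatonin table. The lowest young value, that of replicate 5, lay below that of old vehicle replicates 2 and 8, so the groups overlapped. The log2 differences were -0.35 ± 0.24 and 0.42 ± 0.26 (edgeR adjusted p = 0.526 and 0.491). The second retention factor Insig2 and the escort gene Scap had log2 differences of 0.11 and -0.0026 with age, and -0.12 and -0.079 for labelled melatonin minus old vehicle.

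The 18 sterol synthesis genes had a median log2 difference of -0.38 for old minus young, with 15 lower, and of 0.45 for labelled melatonin minus old vehicle, with 15 higher. None passed the edgeR threshold in either comparison, and 0 of 18 had an unadjusted p under 0.05. Hmgcs1, the synthase that makes HMG-CoA at the entry of the pathway, was at 112, 178 and 107 CPM in the young and 116, 57.0 and 55.2 CPM in the old vehicle libraries. For old vehicle 1, 3 and 5 and their labelled melatonin counterparts the levels were 106, 55.9 and 52.7 CPM in old vehicle and 99.9, 175 and 107 CPM in labelled melatonin libraries. Old vehicle replicate 2 lay above 2 of the 3 young libraries, and replicates 8 and 9 below all 3. Its log2 differences were -0.77 ± 0.36 and 0.79 ± 0.35 (edgeR adjusted p = 0.399 and 0.374).

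Sqle, the squalene epoxidase that prepares squalene for ring closure, was at 88.3, 109.7 and 57.0 CPM in the young and 88.8, 40.6 and 41.9 CPM in the old vehicle libraries. Its levels in the other table were 84.1, 39.9 and 43.2 CPM in old vehicle and 84.8, 114 and 54.8 CPM in labelled melatonin libraries. Again old vehicle replicates 2 and 1 lay among the young and labelled melatonin libraries, and the other 4 old vehicle libraries were the lowest of the 12. Its log2 differences were -0.55 ± 0.39 and 0.57 ± 0.38. Cyp51, which removes a methyl group from lanosterol, was at 116, 216 and 83.4 CPM in the young and 125, 62.3 and 45.1 CPM in the old vehicle libraries. In the melatonin table it was at 111, 55.1 and 39.9 CPM in old vehicle and 107, 219.7 and 79.5 CPM in labelled melatonin libraries. The highest library of each comparison, young 4 and labelled melatonin 3, stood far above the next one, and without it the log2 difference shrank from -0.81 to -0.36 and from 0.94 to 0.44. Fdps was at 69.1, 113 and 59.7 CPM in the young and 69.7, 44.7 and 34.2 CPM in the old vehicle libraries. It was at 68.7, 40.7 and 29.6 CPM in old vehicle and 60.3, 127 and 49.95 CPM in labelled melatonin libraries of the melatonin table. Old vehicle replicate 2 lay above young vehicle replicates 2 and 5, and the log2 differences were -0.68 ± 0.34 and 0.73 ± 0.45.

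Of the other genes of this role, Mvd and Fdft1, which act before and after Fdps, had log2 differences of -0.73 and -0.72 with age and 0.63 and 0.73 in the melatonin table. For Sc5d, a late desaturase, they were -0.56 and 0.54, and for Lss, which closes the sterol rings, -0.38 and 0.38. Acat2 of the acetoacetyl-CoA step, the mevalonate pathway kinases Mvk and Pmvk, the isomerase Idi1 and the late sterol enzymes Msmo1, Nsdhl and Dhcr7 ran from -0.40 to -0.067 with age. In the melatonin table these 7 ran from 0.023 for Dhcr7 to 1.05 for Idi1. The 3 genes with the opposite sign with age were Ebp, a sterol isomerase, Tm7sf2, a sterol reductase, and Hsd17b7, a ketosteroid reductase, at 0.53, 0.24 and 0.026. In the melatonin table these were -0.29, -0.51 and -0.15. Stard4, which carries cholesterol between membranes, had -0.42 and 0.49. All of these were smaller than 2 SE.

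As a mean over the 18 genes, sterol synthesis stood at 5.29, 5.75 and 4.73 log2 CPM in young vehicle replicates 2, 4 and 5 and at 5.42, 4.56 and 4.69 in old vehicle replicates 2, 8 and 9. It stood at 5.37, 4.57 and 4.45 in old vehicle replicates 1, 3 and 5 and at 5.17, 5.79 and 4.67 in labelled melatonin replicates 1, 3 and 5. Old vehicle replicates 2 and 1 were thus above 2 of the 3 libraries of the group they were compared with, while young vehicle 5 and its match stood near the low old vehicle libraries. Among the 6 old vehicle libraries, replicates 1 and 2 held the 2 highest levels for 14 of the 18 genes. These 2 are a matched pair, and the share of all genes with this order was not computed. The macrophage list averaged 4.27, 8.64 and 8.64 log2 CPM in old vehicle replicates 2, 8 and 9 and 4.39, 8.75 and 8.51 in replicates 1, 3 and 5. Across the 12 libraries 16 of 18 sterol genes had a negative Pearson r with that mean, with a median of -0.681 and -0.947 for Hmgcs1. These 12 points form 6 close pairs and share the CPM scale, so r is a description. The share of all genes with a negative r was not computed. Young vehicle replicate 5 and labelled melatonin replicate 5 combined low sterol means with low macrophage means, 1.79 and 2.28. Proliferation genes were highest in young vehicle 4 and labelled melatonin 3, at 7.09 and 7.13 mean log2 CPM, and ran from 4.01 to 6.25 elsewhere. The part of proliferation in these values was not tested. Summed stromal markers ran from 4775 to 5393 CPM in the 4 old vehicle libraries rich in macrophage transcripts and from 7442 CPM upwards in the other 8. By mean log2 CPM these sets of libraries overlapped, at 6.09 to 7.04 in the former and 6.61 to 7.84 in the latter. Of the 10 stromal markers 6 were lower and 4 higher with age, and 3 were lower and 7 higher in the melatonin table. Their log2 differences were not uniform, from -1.50 to 4.96 with age (median -0.38) and from -5.29 to 1.49 in the melatonin table (median 0.42). In such bulk samples fewer cells of a type and less RNA per cell cannot be told apart.

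**Figure D2:**
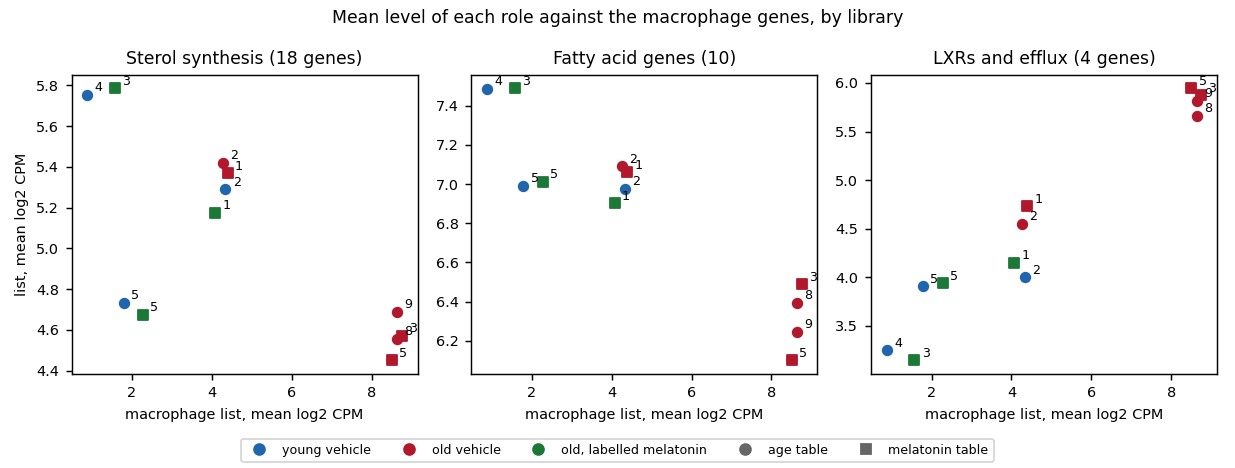
Mean log2 CPM of sterol synthesis, fatty acid, and LXR and efflux genes (vertical axes) against the mean of the 20 macrophage genes (horizontal axes), with 1 point per library labelled by replicate number. The 4 old vehicle libraries with a macrophage mean above 8 have the lowest fatty acid means and the highest LXR and efflux means, while young 5 and melatonin 5 have low sterol means at low macrophage means.

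The 10 fatty acid genes had a median log2 difference of -0.45 with age, with 9 lower, and of 0.43 in the melatonin table, with 8 higher. Their largest differences were in the elongase gene Elovl6 and in the desaturase genes Scd2 and Scd1. Elovl6, the elongase that extends palmitate to stearate, was at 38.9, 67.7 and 30.7 CPM in the young and 25.5, 13.7 and 10.3 CPM in the old vehicle libraries. The melatonin table gave 21.4, 14.4 and 10.1 CPM in old vehicle and 33.98, 66.3 and 33.1 CPM in labelled melatonin libraries. The groups did not overlap in either table. The log2 differences were -1.45 ± 0.44 (edgeR adjusted p = 0.315) and 1.502 ± 0.39 (edgeR adjusted p = 0.286), and with old vehicle replicate 2 or 1 as the only old library they were -0.84 and 1.04.

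Scd2, a stearoyl-CoA desaturase that makes oleate, was at 771, 1224 and 765 CPM in the young and 759, 233 and 138 CPM in the old vehicle libraries. For old vehicle 1, 3 and 5 and their labelled melatonin counterparts the levels were 753, 259 and 85.3 CPM in old vehicle and 753, 1225 and 756 CPM in labelled melatonin libraries. Old vehicle replicates 2 and 1 were level with the lowest young and labelled melatonin libraries to within a few CPM, so that the lack of overlap rests on a very small gap, and the other 4 old vehicle libraries were far below. The log2 differences were -1.27 ± 0.64 and 1.29 ± 0.74 (edgeR adjusted p = 0.430 and 0.466), or -0.27 and 0.26 with replicate 2 or 1 as the only old library. The related desaturase gene Scd1 was at 213, 203 and 187 CPM in the young and 225, 57.8 and 59.3 CPM in the old vehicle libraries. Its levels in the other table were 231, 61.9 and 53.4 CPM in old vehicle and 180.0, 198 and 183 CPM in labelled melatonin libraries. The 2 highest of the 12 values were those of old vehicle replicates 1 and 2, and the 4 lowest those of the other old vehicle libraries. Its log2 differences were -0.81 ± 0.56 and 0.68 ± 0.57, and without old vehicle replicate 1 the second was 1.66 (edgeR adjusted p = 0.0269). That fit keeps only the old vehicle libraries of its table that are rich in macrophage transcripts, and 4.33% of all genes passed in it. In the age fit without old vehicle replicate 2 no member passed, and the smallest edgeR adjusted p of a member was 0.061. Estimated counts of Scd1, Scd2, Fads2 and Elovl6, like those of Srebf1, Acat2, Fdft1, Cyp51 and Sc5d, were whole in none of the 12 libraries, so part of their reads was divided among features.

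Fasn, the fatty acid synthase, was at 245, 441 and 165 CPM in the young and 256, 199 and 165 CPM in the old vehicle libraries. In the melatonin table it was at 263, 215 and 128 CPM in old vehicle and 221, 431 and 179 CPM in labelled melatonin libraries. Young vehicle 4 and labelled melatonin 3 were far above all others, and without them the log2 differences of -0.43 and 0.42 became 0.015 and -0.019. Acaca, the acetyl-CoA carboxylase that commits carbon to fatty acids, was at 74.4, 119 and 102 CPM in the young and 90.8, 61.5 and 57.2 CPM in the old vehicle libraries. The melatonin table gave 86.7, 74.5 and 47.1 CPM in old vehicle and 75.8, 114 and 114 CPM in labelled melatonin libraries. The groups overlapped through old vehicle replicates 2 and 1, and the log2 differences were -0.47 ± 0.25 and 0.51 ± 0.28. Elovl1, which elongates very long chains, went the other way, at 72.6, 78.3 and 96.3 CPM in the young and 88.8, 104 and 135 CPM in the old vehicle libraries. For old vehicle 1, 3 and 5 and their labelled melatonin counterparts the levels were 86.2, 114 and 131 CPM in old vehicle and 77.6, 81.4 and 86.1 CPM in labelled melatonin libraries. Its log2 differences were 0.43 ± 0.22 and -0.47 ± 0.20 (edgeR adjusted p = 0.436 and 0.372). Acly, which supplies cytosolic acetyl-CoA, and the polyunsaturated chain genes Fads1, Fads2 and Elovl5 had log2 differences of -0.041, -0.11, -0.51 and -0.14 with age, none above 2 SE. Of 6 adipocyte markers 5 were listed, most of their CPM came from Fabp4, which macrophages also express, and the defining hormone gene Adipoq had no count in some libraries. Their summed level was 10.5 to 38.1 CPM in young vehicle, 29.6 to 84.6 and 25.6 to 96.6 CPM in the old vehicle libraries of the 2 tables, and 10.5 to 39.1 CPM in libraries labelled melatonin. Of these markers 2 passed the filter on low counts in each table, and none passed by edgeR. The log2 differences of Fabp4 were 1.34 ± 0.58 and -1.45 ± 0.63. Those of the other marker tested were larger, at 4.35 with age and -5.10 in the melatonin table. Adipoq reached at most 5.49 CPM in old vehicle, 0.409 CPM in young vehicle and 0.138 CPM in labelled melatonin libraries. The part of adipocyte markers in the fatty acid values was not tested.

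**Figure D3:**
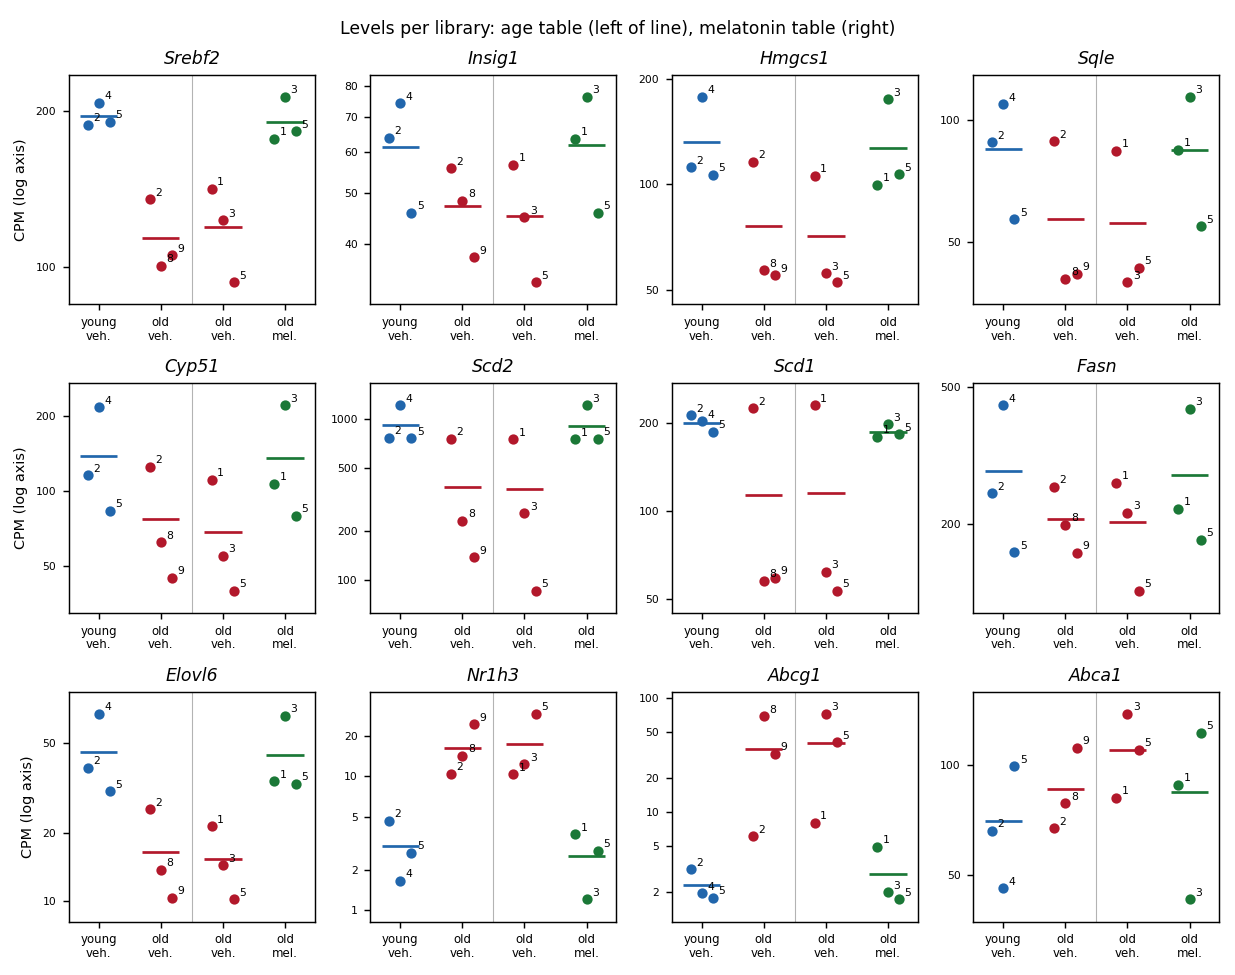
CPM per library (log axes) of 12 members, with 1 point per library labelled by replicate number and a line at the group mean. Left of the grey line is the age table and right of it the melatonin table. For Srebf2, Elovl6, Nr1h3 and Abcg1 the groups do not overlap, for Sqle old vehicle 2 and 1 lie among the young and labelled melatonin libraries, and for Scd1 they are the highest of all.

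The genes of the LXRs and of sterol efflux ran against the synthesis genes, with 4 of 4 higher in old than in young vehicle and 4 of 4 lower in libraries labelled melatonin than in old vehicle. Nr1h3, which encodes LXR alpha, was at 4.63, 1.65 and 2.68 CPM in the young and 10.5, 14.2 and 24.7 CPM in the old vehicle libraries. Its levels in the other table were 10.4, 12.3 and 29.5 CPM in old vehicle and 3.67, 1.20 and 2.77 CPM in labelled melatonin libraries. The groups did not overlap, and old vehicle replicates 2 and 1 were also above every young and labelled melatonin library. The log2 differences were 2.47 ± 0.54 (edgeR adjusted p = 0.315) and -2.80 ± 0.63 (edgeR adjusted p = 0.286), or 1.81 and -2.04 with replicate 2 or 1 as the only old library.

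Abcg1, which exports cholesterol to lipoproteins, was at 3.13, 1.93 and 1.77 CPM in the young and 6.12, 69.0 and 32.3 CPM in the old vehicle libraries. In the melatonin table it was at 8.03, 72.3 and 40.8 CPM in old vehicle and 4.95, 1.98 and 1.71 CPM in labelled melatonin libraries. The groups did not overlap, but old vehicle replicates 2 and 1 were closer to the young and labelled melatonin libraries than to the other old vehicle libraries. The log2 differences were 3.99 ± 0.90 and -3.83 ± 0.91 (edgeR adjusted p = 0.315 and 0.286), and 1.42 and -1.48 with replicate 2 or 1 as the only old library. Abcg1 had the highest Pearson r with the macrophage mean of the 38 members, 0.972 over the 12 libraries, and Nr1h3 had 0.913.

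Abca1, the pump that loads cholesterol on apolipoprotein A1, was at 66.1, 46.0 and 99.3 CPM in the young and 67.2, 78.6 and 112 CPM in the old vehicle libraries. The melatonin table gave 81.5, 138 and 110.4 CPM in old vehicle and 88.3, 43.0 and 123 CPM in labelled melatonin libraries. The groups overlapped, and the log2 differences were 0.30 ± 0.35 and -0.40 ± 0.42. Of the 38 members Abca1 differed most between old vehicle replicate 3, with 138 CPM, and its match, replicate 8, with 78.6 CPM. Nr1h2, which encodes the widely expressed LXR beta, had log2 differences of 0.34 ± 0.32 and -0.50 ± 0.27.

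**Figure D4:**
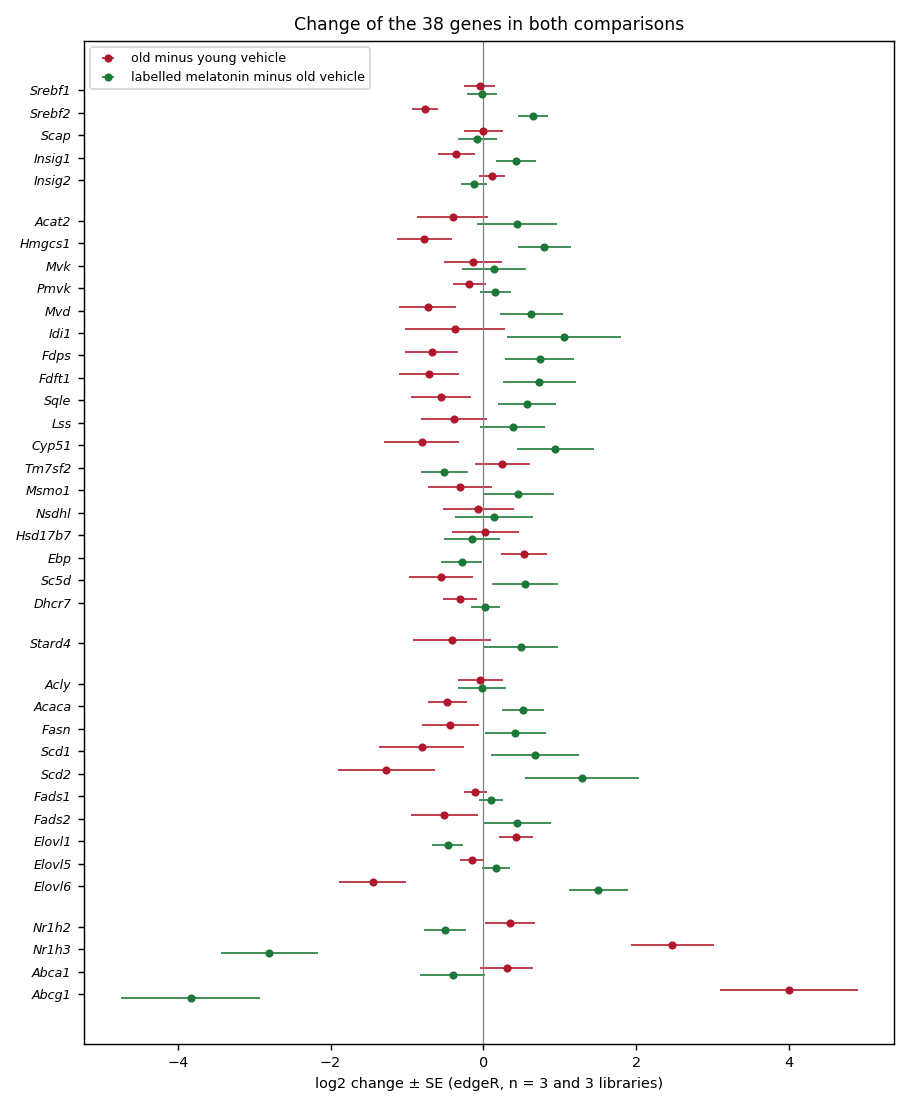
Log2 change with its SE (horizontal axis, edgeR, n = 3 and 3 libraries) of each of the 38 members (vertical axis, by role), for old minus young vehicle and for labelled melatonin minus old vehicle. Most synthesis genes lie left of 0 in the first and right of 0 in the second, and Nr1h3 and Abcg1 lie farthest on the opposite sides.

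Taking all 38 members, 29 were lower and 9 higher in old than in young vehicle, with a median log2 difference of -0.33. Over all 13547 genes tested 52.3% were lower and the median was -0.025. Against old vehicle, 26 members were higher and 12 lower in libraries labelled melatonin, with a median of 0.40, while 6968 of 13471 genes were higher and the median was 0.020. With old vehicle replicate 2 or 1 as the only old library these medians became 0.0094 and -0.016, while a fit that included the mean of the macrophage genes gave 0.17 and -0.28. Without young vehicle 4 the first was -0.045, and without labelled melatonin 3 the second was 0.024.

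By edgeR 0 of 38 members and 0 of 13547 genes (0%) passed an adjusted p of 0.05 in the age comparison, and 0 of 38 and 0 of 13471 (0%) in the melatonin comparison. An unadjusted p under 0.05 was reached by 4 of 38 members with age, against 13.8% of all genes, and by 4 of 38 in the melatonin table, against 14.2%. These were Srebf2, Elovl6, Nr1h3 and Abcg1 each time. By direction, 2 members were lower with age against 4.95% of all genes and 2 higher against 8.81%, and in libraries labelled melatonin 2 were lower against 9.45% and 2 higher against 4.76%. By CPM scaled within each table, the groups did not overlap for 5 members with age, against 18.4% of all genes, and for 6 in the melatonin table, against 18.7%. With age 3 were below, against 9.4% of all genes, and 2 above, against 9.01%. In libraries labelled melatonin 2 were below, against 9.64%, and 4 above, against 9.08%. They were the same 4 genes with Scd2, joined by the mevalonate pathway kinase gene Pmvk in the melatonin table. Elovl1 overlapped there by a narrow margin, 86.02 CPM in old vehicle 1 against 86.06 CPM in labelled melatonin 5, and did not overlap by the CPM scaled over all 12 libraries that are given above. None of these shares over both directions is above the background. DESeq2 called 3 members with age, Srebf2, Nr1h3 and Abcg1, against 6.42% of all genes, and 3 in the melatonin table, Nr1h3, Elovl6 and Abcg1, against 6.68%. Limma-voom called 0 members and 0 genes in either, with 1391 and 1403 genes at an unadjusted p under 0.05. Without old vehicle replicate 1, edgeR called 2 members in the melatonin table, Scd1 and Abcg1, against 4.33% of all genes.

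**Figure D5:**
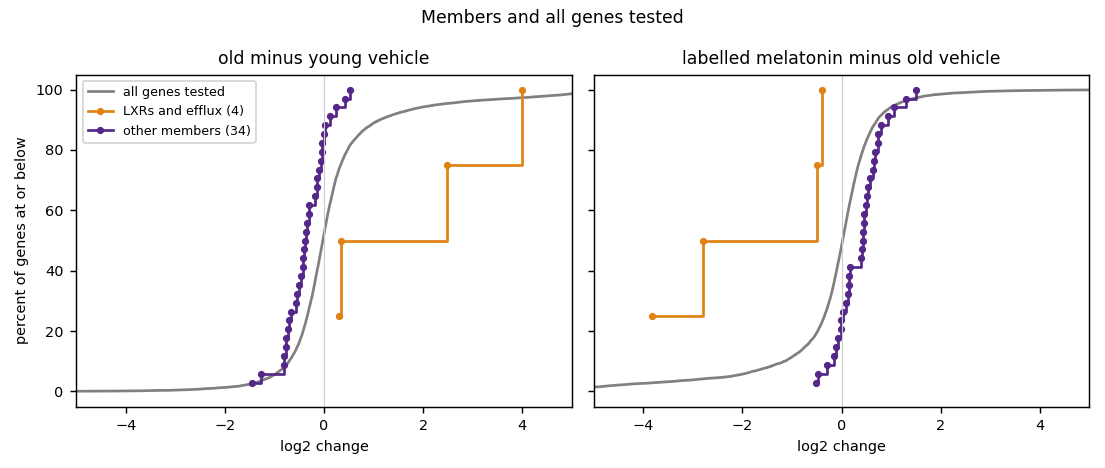
Cumulative percent of genes (vertical axes) at or below a log2 change (horizontal axes, shown from -5 to 5) for all genes tested, for the 4 genes of the LXRs and efflux, and for the other 34 members. The 34 are shifted to lower values with age and to higher ones in the melatonin table, and lie within the spread of all genes.

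Of the other genes of lipid metabolism none passed by edgeR in either comparison. Of 6 genes for SREBP processing and turnover 3 were lower and 3 higher with age, among them the site-1 protease gene Mbtps1, which makes the first cut in SREBPs, at -0.58 ± 0.26, and Erlin2, which encodes a protein of the endoplasmic reticulum, at 0.40 ± 0.17. In the melatonin table Mbtps1 had 0.62 and Erlin2 -0.40. The 8 genes of the isoprenoid branch had a median log2 difference of -0.0090 with age and 0.073 in the melatonin table. Of these Fntb, a farnesyltransferase subunit, had -0.45 and 0.42, and Coq2 of ubiquinone synthesis 0.23 and -0.32. Of 8 genes for sterol transport and storage 6 were higher with age, with a median of 0.70, and 5 lower in the melatonin table, with a median of -0.76. The lysosomal lipase gene Lipa, which frees cholesterol from its esters, had 1.98 ± 0.68 and -1.87 ± 0.69, and the late endosomal sterol carrier gene Stard3 1.03 ± 0.32 and -1.22 ± 0.39. Of 15 further fatty acid and lipid genes tested, 7 were lower and 8 higher with age. The acyl-CoA synthetase genes Acsl3 and Acsl4 had opposite signs, at -1.12 ± 0.41 and 1.05 ± 0.50 with age and 1.26 and -1.15 in the melatonin table.

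Srebf2 served as the reference for likeness over the 12 libraries, by Pearson r of log2 CPM. Among members Elovl6 was most like it (r = 0.954), followed by Scd2 (0.915) and Hmgcs1 (0.899). Srebf1 had r = 0.221 and Scap 0.165. The most unlike were Nr1h3 (r = -0.962) and Abcg1 (-0.924). Outside the members the 5 genes most like Srebf2 were Ankrd34a (r = 0.980), Zzz3 (0.977), Pcbp4 (0.974), Arhgap32 (0.972) and Wrnip1 (0.968). With 6 matched pairs, these values rest on fewer than 12 independent points.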

How the data were processed

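RNA was taken with Trizol from mouse MSCs in DMEM with serum and read on BGISEQ-500, per the labels' protocols. RSEM, Bowtie2, BWA and mm39 appear in the submitters' processing notes without roles or versions, and no source used here gives strand handling. The 2 tables deposited by the authors hold, per the file headers, FPKM, TPM and an estimated count for each gene and library. Of the estimated counts the authors deposited, 67.7% lay within 0.005 of whole. FPKM as deposited served only to check columns, and TPM as deposited also to compare levels between genes. Count headers ending in Vel were read as the vehicle title with the same letter and number. In the check 24 of 24 FPKM and TPM columns best fitted the counts of their own title, over genes with at least 500 counts.

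Counts were rounded. Genes were kept by filterByExpr (minimum count 10, minimum total 15), and each table was scaled by TMM and tested alone with edgeR 4.0.16 (R 4.3.3) by the quasi-likelihood test, with Benjamini-Hochberg adjustment over all genes and a threshold of 0.05. Each SE is the coefficient divided by the root of its F. CPM are TMM-scaled over all 12 libraries, and log2 CPM use a prior count of 2. In each library 3 counts equal 0.136 to 0.152 CPM, a limit that covers counting error only. DESeq2 1.42.0, limma-voom (limma 3.58.1) and the settings in the closing section were alternatives, and the fits were tested on simulated data. The members, lists, tests and alternatives were chosen with earlier results of these data known. All 38 members are named, and values in each library are given for 9 fixed members and for the 8 with the smallest p in each comparison. Of other lists, the 2 genes with the smallest p are named. Promoters are from RefSeq (GRCm38.p6), another build than that of the files, so no gene positions were joined to the counts.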

Additional observations from a re-analysis of the deposited data

How the results depend on the processing

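Directions of the 38 members did not turn under DESeq2, RLE size factors or no filter on low counts, in either comparison, and limma-voom turned 1 with age and 0 in the melatonin table. DESeq2 called 3 members and 865 genes with age, and 3 members and 895 genes in the melatonin table. At an adjusted p under 0.1 edgeR called 0 members in both. As single libraries were left out, edgeR called 0 members and 0 genes with age, and 0 to 2 members and 0 to 602 genes in the melatonin table, where the highest counts were without old vehicle replicate 1. The median log2 difference of the members then ran from -0.55 to -0.045 with age and from 0.024 to 0.63 in the melatonin table, and 12 and 11 of 38 members turned sign in at least 1 such fit. A fit that included the mean of the macrophage genes gave medians of 0.17 and -0.28, and 22 and 20 members turned. That mean differs between the groups, so the fit cannot separate them. With old vehicle replicate 2 or 1 as the only old library, which is assumed to vary like the other group, the medians were 0.0094 and -0.016, and 14 and 10 members turned. The cause was not tested. With CPM scaled over all 12 libraries, a choice made after seeing the data, the groups did not overlap for 5 members with age and 7 in the melatonin table. No pairing by replicate number was visible in the melatonin table. The r of deviations from the group means was -0.247, 0.103 and -0.020 for numbers 1, 3 and 5, and up to 0.307 for unlike numbers. With 3 libraries in each group, these r cannot settle whether the numbers pair the samples. With the replicate block 0 members passed, the median was 0.35 and 0 members turned. No block was fitted in the age table, whose groups share only replicate number 2. At these depths, counting error is small beside the spread between libraries.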

Other observations

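Within matched libraries most members agreed closely, with a median absolute log2 difference of 0.061 to 0.132 over the 38 members, against 0.083 to 0.164 over all 14133 genes. Idi1, the isomerase that makes dimethylallyl diphosphate, was the widest exception. It held 201 estimated counts in old vehicle replicate 9 but 42.6 in its match, old vehicle replicate 5, a log2 difference of -2.17 in CPM, and 109 in young vehicle replicate 5 against 194 in its match, labelled melatonin replicate 5, a log2 difference of 0.82. In the other 4 pairs its counts were 373 and 319, 86.7 and 94.7, 323 and 290, and 468 and 510. Only 8.33% of its estimated counts were whole within 0.005. The desaturase gene Scd2 held 138 CPM in old vehicle replicate 9 and 85.3 CPM in its match, replicate 5. The sterol pump gene Abca1 was 0.81 higher on the log2 scale in old vehicle replicate 3 than in its match, and Abcg1 0.64 higher in labelled melatonin replicate 1 than in young vehicle replicate 2.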
